A study of Mus musculus with 10 samples.

Results

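The 9 genes described here encode receptor chains through which CD8 T cells read cytokines of the common gamma chain and gp130 families: Il2rg, Il7r, Il2ra, Il2rb, Il4ra, Il21r, Il6st, Il6ra and Il27ra. They were chosen by symbol from both families and make up 9 of the 12637 genes in the deposited expression table. Il15ra and Il11ra1 also have rows and are counted here among other receptor chains. The table holds only genes that reach a mean of 1 RPKM (reads per kilobase of transcript, scaled to library depth) in at least 1 group, and Il2ra met that minimum in a single group.

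RNA was sequenced from naive CD8 T cells (CD62Lhi CD44lo/-) sorted from the spleen of Ikaros-Zn4-/- or wild type (WT) mice, which were C57Bl/6 females aged 6 weeks. Ikaros binds DNA through zinc fingers and regulates genes in lymphocytes, and the Ikaros-Zn4-/- allele, a germline deletion of its zinc finger 4, is carried by every cell of the animal and not by T cells alone. The cells of both genotypes were lysed directly (0 min) or after 30 or 120 min on plate-bound antibodies to CD3 and CD28. At 0 min and at 30 min there were 2 libraries per genotype, and at 120 min only 1. The labels do not say that replicates came from separate mice, so p-values measure the spread between these libraries, which may be technical.

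Receptors of the gamma chain family pair the shared chain Il2rg with a chain of their own: Il7r for interleukin 7, Il4ra for interleukin 4, Il21r for interleukin 21, and Il2rb for interleukins 2 and 15. Il2ra can join Il2rb and Il2rg for interleukin 2, not for interleukin 15. Receptors of the gp130 family pair Il6st, which encodes gp130, with Il6ra for interleukin 6 or Il27ra for interleukin 27. None of the chains has kinase activity. JAK kinases bound to their tails phosphorylate STAT factors, which move to the nucleus. In resting T cells interleukin 7 sustains survival, and after antigen contact the chains of the interleukin 2 receptor carry growth signals.

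Depth recovered from the RPKM values was 4.50 to 13.3 M reads per library, and the members other than Il2ra held 723 to 14496 reads in every library, so counting error is small for them. Ikzf1, which encodes Ikaros, stood at 206 to 263 RPKM in the 5 Ikaros-Zn4-/- libraries and at 134 to 171 RPKM in the 5 WT libraries, and a value per gene does not check the deletion of 1 finger. All 6 CD8 T cell markers were present, with a summed level of 3542 to 3722 RPKM in Ikaros-Zn4-/- cells and 2857 to 3275 RPKM in WT cells at 0 min. At 120 min the sum was 1177 RPKM in Ikaros-Zn4-/- cells and 1100 RPKM in WT cells, and all 6 passed as lower (median change relative to all genes -2.04, limma). RNA of Cd44, whose surface protein was gated as low or absent in the sort, stayed between 0.731 and 1.75 RPKM. Cd4, Foxp3, Ms4a1, Pax5, Csf1r, Cd14, Ncr1 and all 6 erythroid and platelet markers were not among the genes analysed here. Of 6 B cell markers 3 were measured, with a summed level of 276 to 314 RPKM in Ikaros-Zn4-/- cells and 386 to 411 RPKM in WT cells at 0 min, and 46.7 RPKM in Ikaros-Zn4-/- cells and 76.7 RPKM in WT cells at 120 min, most of it Ighm. Over all times Ighm (-0.56, adjusted p = 0.0161) and Cd79b (-0.83, adjusted p = 0.00239) were lower in Ikaros-Zn4-/- cells in limma. Cd79a went the other way and did not pass (0.19, adjusted p = 0.491). It had 0.152 to 0.309 RPKM at 0 min, and 6.26 RPKM in Ikaros-Zn4-/- cells and 3.79 RPKM in WT cells at 120 min. Cd79a is in the table through its 120 min groups alone. Of 6 myeloid markers 3 were measured, at a sum of 8.14 to 34.2 RPKM, and of 5 CD4 and regulatory T cell markers 2, at a sum of 2.95 to 11.7 RPKM. Of these, Itgam (0.90, adjusted p = 0.00272, at most 1.61 RPKM) and Ikzf4 (1.06, adjusted p = 0.000717, at most 4.59 RPKM) were higher in Ikaros-Zn4-/- cells, and Itgam is in the table through those groups alone. The part of other cells in the receptor levels was not tested. In bulk RNA a lower share of cells carrying a transcript and less of it per cell cannot be told apart.

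Before stimulation the receptor transcripts formed an upper and a lower tier in Ikaros-Zn4-/- cells, while in WT cells Il2rb lay in between. RPKM values, being per length, allow levels of different genes to be set side by side only as far as the gene lengths used, which are not stated, are right. In Ikaros-Zn4-/- cells at 0 min, Il2rb (196 ± 10.1 RPKM, SD, n = 2), Il2rg (194 ± 8.08), Il27ra (178 ± 20.3), Il7r (177 ± 14.1) and Il21r (164 ± 12.3) were highest, and each neighbour in this order overlapped the next. Il6ra (78.4 ± 1.71), Il4ra (48.4 ± 4.67) and Il6st (32.2 ± 2.62) followed without overlap. In WT cells at 0 min, Il27ra (177 ± 7.57 RPKM, SD, n = 2), Il2rg (175 ± 12.9) and Il7r (170 ± 71.9) overlapped, and Il21r (129 ± 1.51) lay within the wide range of Il7r. Below them came Il2rb (81.7 ± 0.986), then Il6ra (56.1 ± 1.50) and Il4ra (51.3 ± 6.14), which overlapped, and Il6st (30.4 ± 0.397). Il2ra was near the detection limit in both genotypes.

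After 120 min the order had turned over. Il21r headed it at 345 RPKM in the Ikaros-Zn4-/- library and 415 RPKM in the WT library, and Il27ra closed it, Il2ra aside, at 22.5 RPKM in the Ikaros-Zn4-/- library and 22.2 RPKM in the WT library. Il2rg had dropped below Il2rb, Il7r and Il4ra in both. Among all 12637 genes, Il21r moved between rank 317 and rank 51 over the 10 libraries, and Il27ra between rank 144 and rank 2290. Each 120 min value is 1 library, so these orders have no replicate check.

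**Figure D1:**
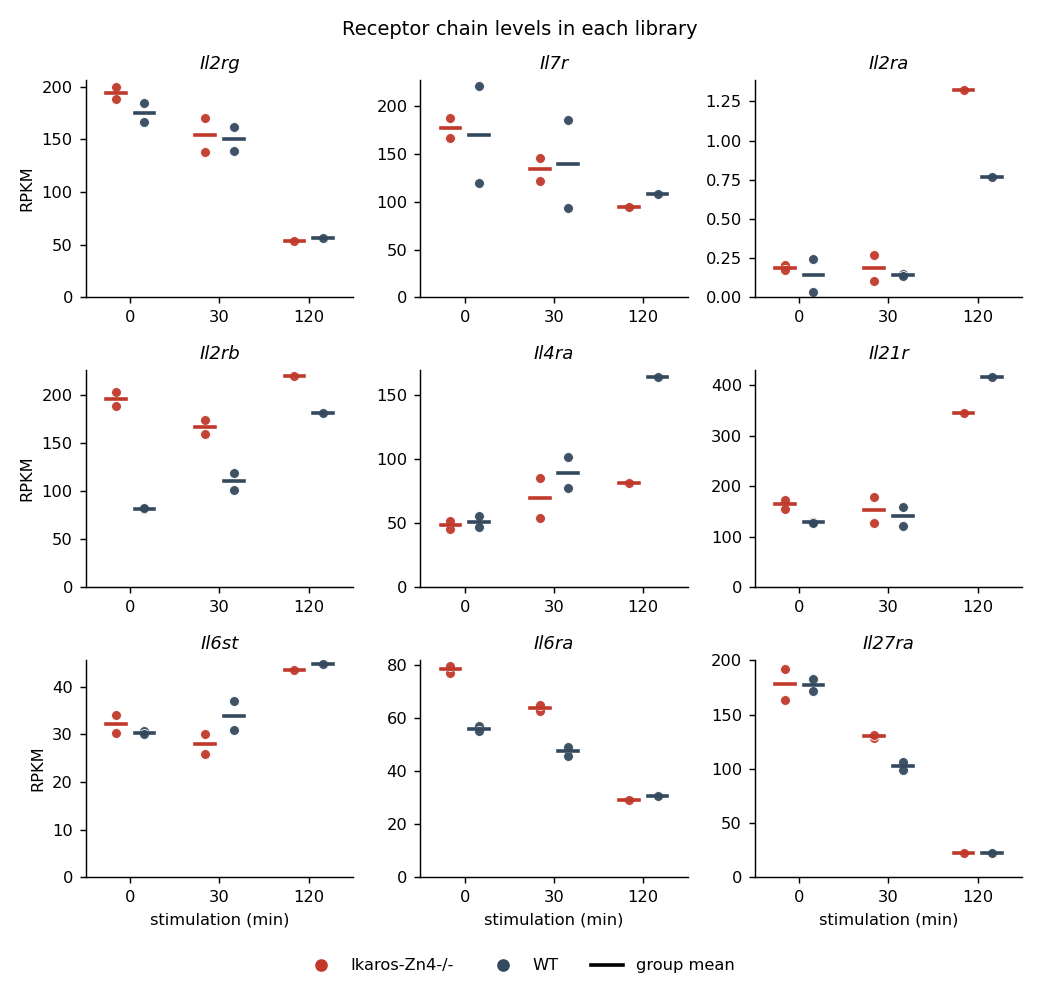
RPKM of the 9 receptor chains in each library (points) against minutes of stimulation, Ikaros-Zn4-/- left of WT at each time, with group means as bars (n = 2 libraries per group at 0 and 30 min, 1 at 120 min). Il21r and Il4ra have their highest group means and Il2rg, Il6ra and Il27ra their lowest at 120 min, while Il2rb separates the genotypes at 0 min (189 and 203 RPKM in Ikaros-Zn4-/- cells, 81.0 and 82.4 RPKM in WT cells).

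What stimulation does to the receptors was examined as the mean of both genotypes. Changes are log2 differences of RPKM + 1, given relative to the median of all genes in the same contrast (-0.13 at 30 min and -0.32 at 120 min against 0 min, -0.22 at 120 min against 30 min), while tests and adjusted p-values refer to the deposited scale. At 30 min, 2 of the 8 members tested passed the threshold of 0.05 (limma, Benjamini-Hochberg), Il4ra upward and Il27ra downward, where 19% of all 12203 genes tested passed (6.51% upward and 12.5% downward). At 120 min against 0 min, 7 of 8 passed, 4 upward and 3 downward, where 59.7% of all genes passed (19.3% upward and 40.4% downward). At 120 min against 30 min, 6 of 8 passed, 3 in each direction, where 48.2% of all genes passed (16.9% upward and 31.3% downward). The split of all genes by direction depends on the scaling. After median-ratio scaling 1118 genes were higher and 836 lower at 30 min (794 and 1523 as deposited), 3635 higher and 3659 lower at 120 min against 0 min (2356 and 4935 as deposited), and 3139 higher and 3043 lower at 120 min against 30 min (2065 and 3820 as deposited). The members' counts by direction were the same after that scaling, except that Il4ra passed upward at 120 min against 30 min as well. Il2ra, with a mean of 0.341 RPKM, was below the minimum of 0.5 RPKM for testing.

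**Figure D2:**
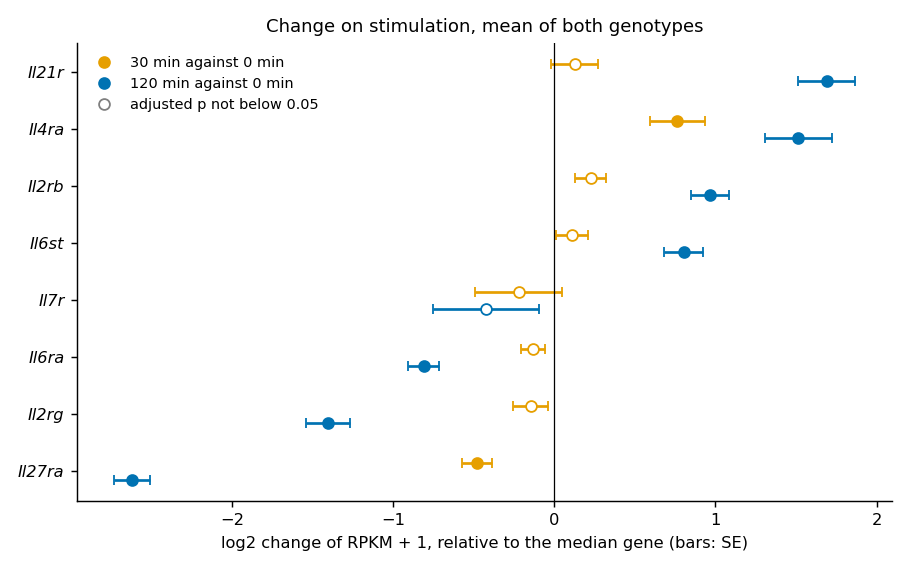
Log2 change of RPKM + 1 relative to the median gene (x axis) for the 8 members tested, at 30 min (orange) and 120 min (blue) against 0 min, mean of both genotypes, with SE bars and filled points for adjusted p below 0.05. At 120 min the members run from Il21r at 1.69 to Il27ra at -2.62.

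The shared gamma chain fell. Il2rg (chromosome X, 101264378 to 101268255, minus strand, GRCm38, GENCODE M21, as for all positions of genes here) stood at 199 and 188 RPKM in Ikaros-Zn4-/- cells and 166 and 184 RPKM in WT cells at 0 min. At 30 min it had 138 and 170 RPKM in Ikaros-Zn4-/- cells and 139 and 161 RPKM in WT cells, and at 120 min 53.6 RPKM in Ikaros-Zn4-/- cells and 56.8 RPKM in WT cells. Both 120 min libraries lay far below every earlier library, and the genotypes overlapped at 0 and 30 min. The change at 120 min against 0 min was -1.40 (SE 0.14, adjusted p = 8.28e-05), and against 30 min -1.23 (SE 0.14, adjusted p = 0.000304). At 30 min it was -0.15 (SE 0.11, adjusted p = 0.118). Its exons overlap Gm20489 on the same strand, a gene not analysed here, so reads shared with it cannot be told apart.

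The chains that partner Il2rg moved apart from it and from each other. Il21r, the interleukin 21 receptor (chromosome 7, 125603429 to 125633570, plus strand), had 173 and 156 RPKM in Ikaros-Zn4-/- cells and 130 and 128 RPKM in WT cells at 0 min. After 30 min it had 179 and 128 RPKM in Ikaros-Zn4-/- cells and 159 and 121 RPKM in WT cells, so both times overlapped. At 120 min it reached 345 RPKM in Ikaros-Zn4-/- cells and 415 RPKM in WT cells, above all 8 earlier libraries. The change was 1.69 at 120 min against 0 min (SE 0.18, adjusted p = 0.000594) and 0.13 at 30 min (SE 0.15, adjusted p = 0.981), so the rise fell between 30 and 120 min, where the change was 1.60 (SE 0.18, adjusted p = 0.000972).

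Il4ra, the interleukin 4 receptor chain (chromosome 7, 125552120 to 125579474, plus strand), lies beside Il21r, 23955 bases away with 0 annotated genes between them, and rose earlier. It had 45.1 and 51.7 RPKM in Ikaros-Zn4-/- cells and 46.9 and 55.6 RPKM in WT cells at 0 min. At 30 min it had 84.8 and 54.3 RPKM in Ikaros-Zn4-/- cells and 101 and 77.2 RPKM in WT cells. At 120 min it had 81.1 RPKM in the Ikaros-Zn4-/- library and 164 RPKM in the WT library. In WT cells each time lay above the one before it, and in Ikaros-Zn4-/- cells the 120 min library lay within the range of the 30 min libraries. Over both genotypes the change was 0.76 at 30 min (SE 0.17, adjusted p = 0.0422) and 1.51 at 120 min (SE 0.21, adjusted p = 0.00215), and 0.78 at 120 min against 30 min (SE 0.21, adjusted p = 0.0576). The 30 min call was lost without any 1 of 7 of the 8 libraries at 0 and 30 min, with adjusted p-values up to 0.132, and the 120 min call without the WT library of that time (1.08, adjusted p = 0.0757). An antisense gene not analysed here, Gm44876, overlaps its exons, and the kit does not mark strand.

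Il2rb, the signalling chain for interleukins 2 and 15 (chromosome 15, 78479256 to 78495271, minus strand), rose at 120 min by 0.96 (SE 0.12, adjusted p = 0.00273), against 30 min by 0.77 (SE 0.12, adjusted p = 0.00769). Its 30 min change was 0.23 (SE 0.10, adjusted p = 0.521). The libraries of the genotypes differ from the start and are given with the genotype comparison. Without the WT 120 min library, when the contrast rests on Ikaros-Zn4-/- cells alone, the 120 min change was 0.51 (adjusted p = 0.458) and that against 30 min 0.64 (adjusted p = 0.106).

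Il7r, the interleukin 7 receptor chain of naive and memory T cells (chromosome 15, 9505788 to 9530176, minus strand), had the widest SE of the 8 members tested, from the spread of its WT replicates. At 0 min it had 187 and 167 RPKM in Ikaros-Zn4-/- cells and 119 and 221 RPKM in WT cells, and at 30 min 122 and 146 RPKM in Ikaros-Zn4-/- cells and 93.2 and 186 RPKM in WT cells. At 120 min it had 94.5 RPKM in the Ikaros-Zn4-/- library and 109 RPKM in the WT library. In WT cells replicate 1 was the lower at both times, and its 93.2 RPKM at 30 min lay below both 120 min libraries. The change was -0.22 at 30 min (SE 0.27, adjusted p = 0.382) and -0.42 at 120 min (SE 0.33, adjusted p = 0.0907), past the threshold at neither time. Without WT 0 min replicate 1 the 120 min change was -0.63 (adjusted p = 0.0384).

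Il2ra, the alpha chain of the high-affinity interleukin 2 receptor and a classical mark of T cell activation (chromosome 2, 11642807 to 11693193, plus strand), was barely detected before 120 min. At 0 min it had 14 and 4 reads in Ikaros-Zn4-/- cells (0.206 and 0.174 RPKM) and 2 and 11 reads in WT cells (0.0366 and 0.243 RPKM). After 30 min it had 14 and 3 reads in Ikaros-Zn4-/- cells (0.269 and 0.102 RPKM) and 9 and 4 reads in WT cells (0.152 and 0.135 RPKM). At 120 min the Ikaros-Zn4-/- library had 62 reads, or 1.32 RPKM with an exact Poisson 95% interval of 1.01 to 1.70, and the WT library had 41 reads, or 0.767 RPKM with an interval of 0.550 to 1.04. Both 120 min intervals lie above the intervals of all earlier libraries, of which the highest ends at 0.451 RPKM, and they overlap each other. Since only the Ikaros-Zn4-/- 120 min group reached 1 RPKM, the gene is in the table because of that library, and it was left out of the main test. With no filter on low values it passed at 120 min (1.10, SE 0.13, adjusted p = 0.00268), a call that its selection through the group where it is high makes no support. These intervals cover counting error only.

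The promoters of 4 members are shown: Il4ra and Il21r, because they are neighbours on the chromosome and both rose at 120 min, and Il2rg and Il6ra as members that fell. Each is the 250 bases before the RefSeq start (GRCm38.p6), 5′ to 3′ on the strand of the gene, at chr7:125552021-125552270 (Il4ra, plus strand), chr7:125603179-125603428 (Il21r, plus strand), chrX:101268256-101268505 (Il2rg, minus strand) and chr3:89913197-89913446 (Il6ra, minus strand). Capitals mark GGGAA, the core letters that Ikaros binds, or its complement TTCCC.
Il4ra: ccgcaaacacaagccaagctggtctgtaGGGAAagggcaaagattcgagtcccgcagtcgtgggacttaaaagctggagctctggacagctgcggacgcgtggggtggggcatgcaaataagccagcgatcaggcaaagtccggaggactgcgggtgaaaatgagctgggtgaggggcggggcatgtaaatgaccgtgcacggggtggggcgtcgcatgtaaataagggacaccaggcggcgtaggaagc
Il21r: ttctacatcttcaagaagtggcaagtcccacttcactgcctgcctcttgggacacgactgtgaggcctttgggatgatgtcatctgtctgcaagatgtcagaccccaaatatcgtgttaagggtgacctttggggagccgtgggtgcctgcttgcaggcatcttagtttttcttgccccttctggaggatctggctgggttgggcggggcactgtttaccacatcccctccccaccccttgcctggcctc
Il2rg: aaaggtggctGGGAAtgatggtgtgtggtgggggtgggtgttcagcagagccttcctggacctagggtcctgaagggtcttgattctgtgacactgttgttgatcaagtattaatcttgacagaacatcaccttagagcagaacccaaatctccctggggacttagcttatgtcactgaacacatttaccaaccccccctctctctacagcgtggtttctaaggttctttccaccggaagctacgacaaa
Il6ra: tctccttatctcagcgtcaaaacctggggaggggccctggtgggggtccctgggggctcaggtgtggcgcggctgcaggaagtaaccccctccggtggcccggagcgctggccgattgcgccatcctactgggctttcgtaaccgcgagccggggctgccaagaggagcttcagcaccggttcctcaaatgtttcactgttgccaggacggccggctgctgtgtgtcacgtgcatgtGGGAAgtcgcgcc
The RefSeq table matched 7 of the 9 members, all but Il2rb and Il27ra. GGGAA on either strand occurred in 6 of these 7 windows, all but Il21r, against 55.9% of 27018 mouse promoters of the same length. TGGGAA, which contains GGGAA, occurred in the Il2rg and Il6ra windows of these 7, against 21.5% of promoters. Il27ra, the member that fell furthest, had no window. The STAT element TTCNNNGAA occurred in the Il7r window only, against 7.18% of promoters, and the AP-1 element TGANTCA in 0 of 7, against 6.87%. The NFAT core GGAAAA occurred in the Il7r window only, against 20.6%. Il6st and Il6ra had the most CpG sites (26 and 18) and Il7r the fewest (1), where the median promoter has 6. A match is only a description of letters in a window.

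In the gp130 family the shared chain was higher at 120 min and both of its partners lower. Il6st, which encodes gp130 (chromosome 13, 112464070 to 112510086, plus strand), had 34.0 and 30.3 RPKM in Ikaros-Zn4-/- cells and 30.7 and 30.1 RPKM in WT cells at 0 min. At 30 min it had 30.1 and 26.0 RPKM in Ikaros-Zn4-/- cells and 36.9 and 30.8 RPKM in WT cells, and at 120 min 43.6 RPKM in Ikaros-Zn4-/- cells and 44.8 RPKM in WT cells. Both 120 min libraries were above all earlier ones, with a change of 0.80 (SE 0.12, adjusted p = 0.0114), and of 0.11 at 30 min (SE 0.10, adjusted p = 0.887). The 120 min call was lost without the WT library of that time (0.78, adjusted p = 0.0789), and the change against 30 min (0.73, SE 0.12, adjusted p = 0.0125) lost its call without the Ikaros-Zn4-/- library (0.57, adjusted p = 0.131).

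Il6ra, the interleukin 6 receptor chain that also exists as a shed soluble form (chromosome 3, 89864059 to 89913196, minus strand), had 77.2 and 79.6 RPKM in Ikaros-Zn4-/- cells and 57.2 and 55.1 RPKM in WT cells at 0 min. After 30 min it had 62.7 and 65.0 RPKM in Ikaros-Zn4-/- cells and 45.7 and 49.3 RPKM in WT cells, and at 120 min 29.1 RPKM in Ikaros-Zn4-/- cells and 30.7 RPKM in WT cells. Within each genotype every time lay below the one before it. The change was -0.13 at 30 min (SE 0.08, adjusted p = 0.0547) and -0.81 at 120 min (SE 0.09, adjusted p = 0.000104), and -0.65 at 120 min against 30 min (SE 0.09, adjusted p = 0.000523). An antisense gene not analysed here, Gm42809, overlaps its exons.

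Il27ra, the interleukin 27 receptor chain (chromosome 8, 84030294 to 84042589, minus strand), fell furthest of the 8 members tested. It had 192 and 164 RPKM in Ikaros-Zn4-/- cells and 183 and 172 RPKM in WT cells at 0 min, and 129 and 131 RPKM in Ikaros-Zn4-/- cells and 107 and 99.0 RPKM in WT cells at 30 min. At 120 min it had 22.5 RPKM in Ikaros-Zn4-/- cells and 22.2 RPKM in WT cells. No library of one time overlapped another time, and the 0 min mean was 7.91 times the 120 min value in Ikaros-Zn4-/- cells and 8.01 times in WT cells. The change was -0.48 at 30 min (SE 0.09, adjusted p = 0.00774), -2.62 at 120 min (SE 0.11, adjusted p = 3.23e-05) and -2.11 at 120 min against 30 min (SE 0.11, adjusted p = 0.000117). Palm3, a gene on the opposite strand whose exons overlap those of Il27ra, was also lower at 120 min. It had at most 32.7 RPKM in Ikaros-Zn4-/- cells and 21.6 RPKM in WT cells, both at 0 min, and 0.872 RPKM in Ikaros-Zn4-/- cells and 0.791 RPKM in WT cells at 120 min. Reads of the 2 genes in the overlap cannot be told apart.

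Because the chains work in pairs, the level of each specific chain over its shared partner was computed in every library. Il21r over Il2rg was 0.868 and 0.828 in Ikaros-Zn4-/- cells and 0.783 and 0.694 in WT cells at 0 min, and 6.44 in Ikaros-Zn4-/- cells and 7.32 in WT cells at 120 min. Il4ra over Il2rg was 0.226 and 0.275 in Ikaros-Zn4-/- cells and 0.282 and 0.301 in WT cells at 0 min, and 1.51 in Ikaros-Zn4-/- cells and 2.88 in WT cells at 120 min. Il2rb over Il2rg was 0.946 and 1.08 in Ikaros-Zn4-/- cells and 0.488 and 0.447 in WT cells at 0 min, and 4.09 in Ikaros-Zn4-/- cells and 3.18 in WT cells at 120 min. Thus the shared gamma chain, at or above most of its partners at 0 min, was the less abundant transcript of these 3 pairs at 120 min and of the pair with Il7r, whose ratio was above 1 as well (1.76 in Ikaros-Zn4-/- cells and 1.91 in WT cells).

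In the gp130 family the ratios ran the other way. Il27ra over Il6st was 5.65 and 5.40 in Ikaros-Zn4-/- cells and 5.96 and 5.72 in WT cells at 0 min, 4.28 and 5.04 in Ikaros-Zn4-/- cells and 2.89 and 3.21 in WT cells at 30 min, and 0.516 in Ikaros-Zn4-/- cells and 0.495 in WT cells at 120 min. At 30 min the genotypes did not overlap in this ratio, nor in Il6ra over Il6st. The same held for Il2rb over Il2rg at 30 min (1.26 and 0.936 in Ikaros-Zn4-/- cells, 0.856 and 0.625 in WT cells). Il6ra over Il6st was 2.27 and 2.63 in Ikaros-Zn4-/- cells and 1.87 and 1.83 in WT cells at 0 min, and 0.667 in Ikaros-Zn4-/- cells and 0.686 in WT cells at 120 min. At 120 min Il6st exceeded both of its partners. The ratios of both families are descriptions of transcript levels, with no test, and rest on gene lengths that are not stated.

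**Figure D3:**
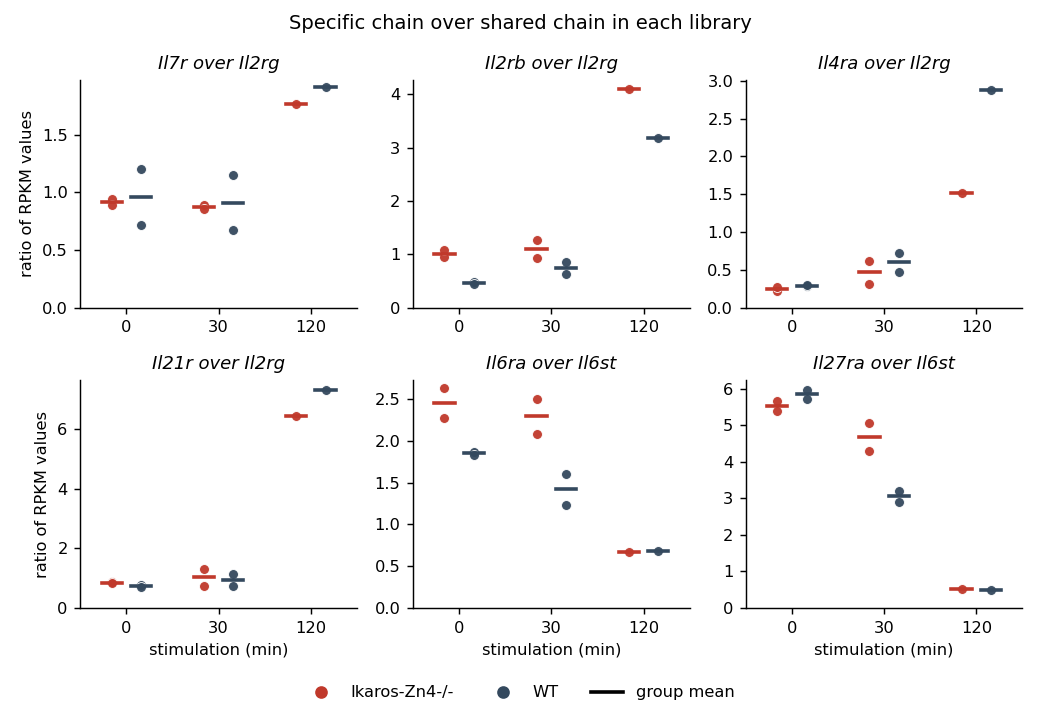
Ratio of RPKM values (y axis) of a specific chain over its shared chain in each library, against minutes of stimulation, Ikaros-Zn4-/- left of WT, with group means as bars. At 120 min all 4 ratios over Il2rg exceed 1, up to 7.32 for Il21r in WT cells, and both ratios over Il6st are below 1.

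Whether the mutation alters the receptors was examined at 0 min, at 30 min and over all times. Il2rb was the 1 member of 8 that passed over all times, where 9.42% of all genes tested passed (6.19% upward and 3.24% downward). It was also the 1 of 8 that passed at 0 min, where 2.47% of all genes passed (1.92% upward and 0.557% downward). At 30 min 0 of 8 passed in limma, where 2.61% of all genes passed (2.01% upward and 0.606% downward). An unadjusted p below 0.05 was reached there by 3 of 8 members and by 2100 of all 12203 genes tested. At 120 min the genotypes are 1 library against 1, with no test. Genotype differences are Ikaros-Zn4-/- minus WT on the deposited log2(RPKM + 1) scale.

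Il2rb had 189 and 203 RPKM in Ikaros-Zn4-/- cells and 81.0 and 82.4 RPKM in WT cells at 0 min, a mean 2.40 times as high. At 30 min it had 174 and 159 RPKM in Ikaros-Zn4-/- cells and 119 and 101 RPKM in WT cells, and at 120 min 219 RPKM in the Ikaros-Zn4-/- library and 181 RPKM in the WT library. The genotypes did not overlap at any time, and the ratio of means was 1.52 at 30 min and 1.21 at 120 min. The difference was 1.25 at 0 min (SE 0.14, adjusted p = 0.00527), 0.60 at 30 min (SE 0.14, adjusted p = 0.0803) and 0.79 over all times (SE 0.15, adjusted p = 0.0101, higher in 5 of 5 libraries at their time). The 0 min call was lost without WT 0 min replicate 1 (1.24, adjusted p = 0.0578) or replicate 2 (1.26, adjusted p = 0.0530). The 120 min level was 1.12 times the 0 min mean in Ikaros-Zn4-/- cells and 2.21 times in WT cells, but the difference of the responses, -0.97 (SE 0.24, unadjusted p = 0.00433), had an adjusted p = 0.862 and did not pass.

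Il2rb is also a gene of memory CD8 T cells, and some of the other genes of those cells were higher in Ikaros-Zn4-/- cells too. Of 9 memory or effector markers other than Il2rb, 7 were measured, all but Gzmk and Klrg1, and 3 were higher over all times and 0 lower, where 6.19% of all genes were higher. Differences of Prf1 (0.0087), Ccl5 (0.18), Gzmb (-0.026) and Cd44 (-0.31) did not pass. Their summed level was 107 to 129 RPKM in Ikaros-Zn4-/- cells and 45.4 to 53.6 RPKM in WT cells at 0 min, 60.5 to 79.0 RPKM in Ikaros-Zn4-/- cells and 30.9 to 31.4 RPKM in WT cells at 30 min, and 32.0 RPKM in Ikaros-Zn4-/- cells and 9.34 RPKM in WT cells at 120 min. The 3 were the chemokine receptor Cxcr3 (3.27, adjusted p = 8.41e-07) and the transcription factors Eomes (1.64, adjusted p = 3.72e-05) and Tbx21 (1.47, adjusted p = 0.000165). With stimulation Cxcr3 (-1.39) and Eomes (-1.10) fell at 120 min against 0 min, while Tbx21 (-0.11, adjusted p = 0.0851, limma) did not pass. Il2rb at 120 min was 1.12 times its 0 min mean in Ikaros-Zn4-/- cells and 2.21 times in WT cells. Of 5 naive cell markers 1, Dapl1, was higher over all times (0.73, adjusted p = 0.0467) and 0 lower. At 0 min Eomes had 23.0 and 28.6 RPKM in Ikaros-Zn4-/- cells and 9.39 and 6.82 RPKM in WT cells. Cd44, a memory marker whose surface protein was gated as low or absent in the sort, had 0.731 and 1.05 RPKM in Ikaros-Zn4-/- cells and 0.893 and 1.61 RPKM in WT cells at 0 min. Of 6 natural killer cell markers only Gzma was measured, at 5.30 and 5.56 RPKM in Ikaros-Zn4-/- cells and 0.212 and 0 RPKM in WT cells at 0 min. With at most 0.212 RPKM in any WT library, Gzma is in the table through the Ikaros-Zn4-/- groups alone, so its difference came with that selection. The part of these markers in the Il2rb difference was not tested.

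The other members showed smaller differences. Il6ra was higher in Ikaros-Zn4-/- cells at 0 and 30 min without overlap and slightly lower at 120 min, with a difference of 0.48 at 0 min (SE 0.11, adjusted p = 0.0896), 0.42 at 30 min (SE 0.11, adjusted p = 0.116) and 0.34 over all times (SE 0.10, adjusted p = 0.0561), none past the threshold. Without either 120 min library the difference over all times was 0.45 and passed (adjusted p = 0.00968 without the WT library and 0.00954 without the Ikaros-Zn4-/- library). Il4ra was 0.38 lower over all times (a difference of -0.38, SE 0.17, adjusted p = 0.225), with 81.1 RPKM in the Ikaros-Zn4-/- library against 164 RPKM in the WT library at 120 min, a ratio of 0.496. Differences over all times were 0.02 for Il7r (SE 0.21), 0.05 for Il2rg (SE 0.09), 0.13 for Il21r (SE 0.14), -0.08 for Il6st (SE 0.10) and 0.14 for Il27ra (SE 0.09), with adjusted p-values of 0.423 to 0.976.

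**Figure D4:**
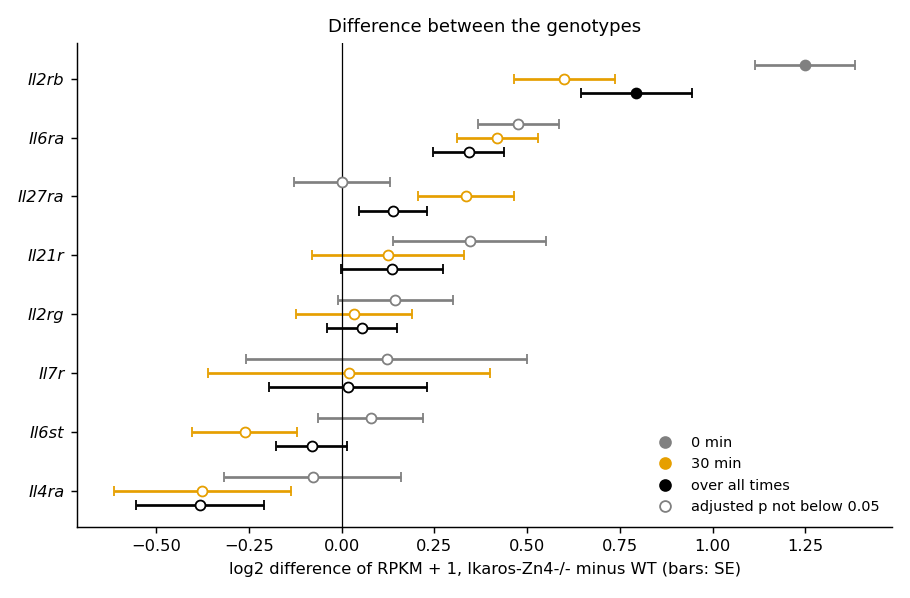
Log2 difference of RPKM + 1, Ikaros-Zn4-/- minus WT (x axis), for the 8 members tested at 0 min, at 30 min and over all times, with SE bars and filled points for adjusted p below 0.05. Il2rb at 0 min (1.25) and over all times (0.79) are the filled points.

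No member responded differently in the genotypes past the threshold. At 30 and at 120 min, 0 of 8 members passed the limma test of the difference between responses, as did 0% of all genes, with 656 genes at 30 min and 661 at 120 min at an unadjusted p below 0.05. Among the members these were Il2rb at 30 min, and Il2rb and Il6ra at 120 min. For Il4ra the 120 min level was 1.67 times the 0 min mean in Ikaros-Zn4-/- cells and 3.19 times in WT cells, a difference of -0.92 (SE 0.41, unadjusted p = 0.0600, adjusted p = 0.949). For Il6ra it was -0.55 (SE 0.19, unadjusted p = 0.0225, adjusted p = 0.892). Both differences at 120 min rest on 1 library per genotype.

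Downstream of the receptors, counts of kinases, STAT factors and other list genes at 120 min stand beside the 59.7% of all genes that passed there (19.3% upward and 40.4% downward), and those at 30 min beside 19%. Counts at an unadjusted p below 0.05 at 30 min stand beside 4374 of all 12203 genes tested. Of the 4 JAK kinases 0 passed at 30 min in limma (1 at an unadjusted p below 0.05) and 3 at 120 min, 1 upward and 2 downward, with a median change of -0.52 at 120 min beside 0 for all genes by construction. Jak3, the kinase bound to Il2rg, had 41.2 and 53.5 RPKM in Ikaros-Zn4-/- cells and 49.0 and 38.1 RPKM in WT cells at 0 min, and 8.32 RPKM in Ikaros-Zn4-/- cells and 5.45 RPKM in WT cells at 120 min. Its change was -2.25 (SE 0.18, adjusted p = 5.80e-05), so the shared chain and its kinase were both lower at 120 min. Tyk2 fell by 1.67 (a change of -1.67, SE 0.10, adjusted p = 3.70e-05), and Jak2 rose by 1.18 (SE 0.11, adjusted p = 0.000494). Jak1, which serves both families, ranged from 162 to 239 RPKM over the 10 libraries and did not pass.

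Of the 7 STAT factors 0 passed at 30 min (4 at an unadjusted p below 0.05), and 4 rose and 2 fell at 120 min (median 0.85). Stat5a, the main STAT of interleukin 2 and 7 signals with Stat5b, had 13.0 and 13.4 RPKM in Ikaros-Zn4-/- cells and 13.9 and 12.3 RPKM in WT cells at 0 min. It reached 71.5 RPKM in Ikaros-Zn4-/- cells and 121 RPKM in WT cells at 120 min, a change of 3.05 (SE 0.15, adjusted p = 3.70e-05). Stat3, the STAT of interleukins 6 and 21, rose by 1.31 (SE 0.12, adjusted p = 0.000396) and Stat5b by 1.28 (SE 0.10, adjusted p = 0.000189). Stat6, the STAT of interleukin 4, fell (-0.60, SE 0.13, adjusted p = 0.00103), and was named after its values were seen.

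Of 15 feedback inhibitors measured of 16 listed, 1 rose and 2 fell at 30 min (median -0.01). Socs1, a JAK inhibitor, rose by 0.93 (SE 0.16, adjusted p = 0.0178), while Socs4 (-0.44) and Socs5 (-0.30) fell. At 120 min 8 rose and 2 fell (median 0.65), among them the STAT inhibitors Pias2 (1.52) and Pias1 (1.48), Socs7 (1.17) and the phosphatase gene Ptpn6 (-1.29). Socs1 was lower again at 120 min than at 30 min, by a change of -0.62 (SE 0.19, adjusted p = 0.0104), a comparison chosen after its values were seen.

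**Figure D5:**
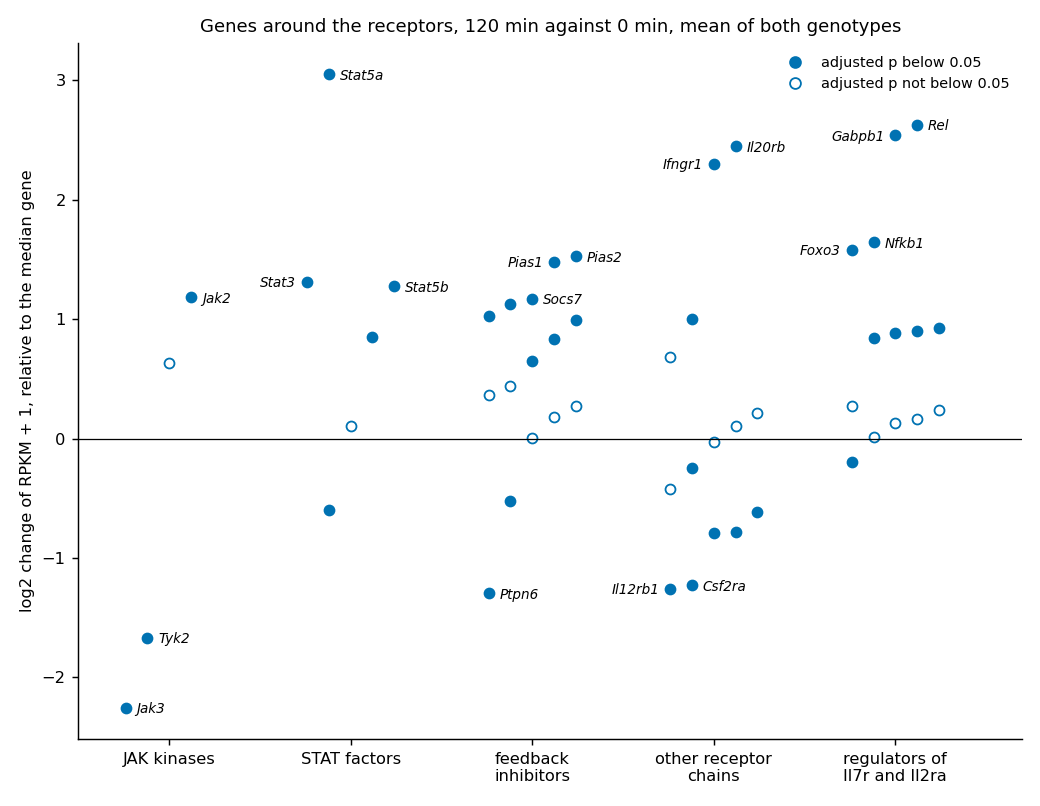
Log2 change of RPKM + 1 at 120 min against 0 min relative to the median gene (y axis), mean of both genotypes, for measured genes of 5 lists around the receptors, 1 STAT gene left out, with filled points for adjusted p below 0.05. Stat5a is highest at 3.05 and Jak3 lowest at -2.25, and up to 4 genes past the threshold are named per list.

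Of 26 other chains of the same receptor classes 14 were measured, and 3 rose and 0 fell at 30 min (median 0.12): Ifngr1 (1.01) and Ifngr2 (1.00), the chains of the interferon gamma receptor, and Il20rb (0.98). At 120 min 3 rose and 6 fell (median -0.14), led by Il20rb (2.45), Ifngr1 (2.30), Il12rb1, an interleukin 12 receptor chain (-1.26), and Csf2ra, a chain of the GM-CSF receptor (-1.23). Of the 3 that rose, Il12rb2 (1.00) had 0.415 to 0.878 RPKM in the 8 earlier libraries. It is in the table through its 120 min groups alone, so its rise came with that selection, for which it is named. Of 16 ligands of the families 3 were measured, and interleukins 2, 4, 7, 15, 21, 6 and 27 were not among the genes analysed here. Lif, a gp130 ligand, had 0.103 to 0.837 RPKM in the 8 earlier libraries and 1.12 RPKM in Ikaros-Zn4-/- cells and 2.80 RPKM in WT cells at 120 min. It is in the table through its 120 min groups alone, so its higher level there (1.51) came with that selection. Clcf1 rose at 120 min (1.05), while Osm, another gp130 ligand, fell at 30 min (-0.78) and was lower at 120 min (-0.69).

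Regulators known to act on Il7r or Il2ra transcription, 14 of 14 measured, held 1 that rose at 30 min (median 0.20), the NF-kB subunit gene Rel at 1.58 (SE 0.22, adjusted p = 0.00859). At 120 min 8 rose and 1 fell (median 0.86), led by Rel (2.63), Gabpb1, a partner of the Il7r activator GABP (2.54), Nfkb1 (1.64) and Foxo3 (1.58), with Runx3 the 1 that fell (-0.20, named because it stood alone). Of 7 shedding and trafficking genes 6 were measured, and Rnf41, a ubiquitin ligase, fell at 30 min (-0.55). At 120 min the ubiquitin ligase gene Cblb (2.09) and Rhbdf2, which controls the sheddase ADAM17 (1.71), rose and Cbl fell (-0.39), with a list median of 0.23.

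Between the genotypes, genes of these lists differed over all times in both directions, and their counts stand beside 9.42% of all genes (6.19% upward and 3.24% downward). Their counts at an unadjusted p below 0.05 stand beside 2838 of all 12203 genes tested. Of 15 feedback inhibitors 3 were higher and 1 lower. Socs3, an inhibitor that binds gp130, had 99.2 and 117 RPKM in Ikaros-Zn4-/- cells and 54.3 and 40.0 RPKM in WT cells at 0 min, and 80.2 RPKM in Ikaros-Zn4-/- cells and 40.6 RPKM in WT cells at 120 min, a difference of 1.21 over all times (SE 0.11, adjusted p = 0.000168). It also passed at 0 min (1.19, adjusted p = 0.0214) and at 30 min (1.34, adjusted p = 0.0134). Cish, a STAT5-induced inhibitor, was higher by 0.89 (SE 0.17, adjusted p = 0.0107), from levels of 0.964 to 7.63 RPKM, and Ptpn6 by 0.55 (SE 0.14, adjusted p = 0.0359), while Sh2b3, an adaptor that restrains JAK signals, was lower (-0.47, SE 0.07, adjusted p = 0.00384).

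Of the 4 JAK kinases 0 passed over all times in limma (1 at an unadjusted p below 0.05). Among other receptor chains 2 of 14 passed, both lower: Ifngr1 by a difference of -1.07 (SE 0.17, adjusted p = 0.00374) and Ifngr2 by -0.58 (SE 0.13, adjusted p = 0.0278). Ifngr1 had 24.3 and 26.8 RPKM in Ikaros-Zn4-/- cells and 52.2 and 53.7 RPKM in WT cells at 0 min, and passed at 30 min as well (-1.41, adjusted p = 0.0239). Gfi1, a repressor of Il7r, was the 1 of 14 regulators that passed (-0.69, SE 0.17, adjusted p = 0.0360). Of the 3 ligands 0 passed in limma over all times (0 at an unadjusted p below 0.05), and of the 6 shedding and trafficking genes 0 passed (1 at an unadjusted p below 0.05).

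For members whose highest and lowest libraries differed by at least 1 on the log2 scale, the 3 genes with the most alike profile were found over the 10 libraries by the root mean square difference of log2(RPKM + 1) after centring each gene. Nearest to Il2rg were H2afy (0.08), Cep57l1 (0.09) and Aagab (0.09), and nearest to Il27ra were Rab37 (0.10), Dennd1c (0.13) and Rinl (0.14). Il6ra was closest to Pxylp1 (0.11), Erlec1 (0.12) and Rpn2 (0.12), Il21r to Rrbp1, Ap1g1 and Ern1 (0.16 to 0.17), and Il4ra to Mef2d, Kctd10 and Slc35d1 (0.16 to 0.18). Il7r was closest to Cyb5a, Vps26b and Ak3 (0.16 to 0.18). Il2rb, closest to Sypl, Cdc34 and Acsl4 (0.18 to 0.21), had less close neighbours at each rank than the other 6. The range of Il6st was under 1.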

How the data were processed

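The authors deposited 1 table of RPKM values, with the 10 libraries as columns and genes as rows. The submitters' processing notes name TopHat2 2.0.12, TopHat and HTSeq 0.6.1, with mm10 and GRCm38 as builds. What each did, and which annotation, gene lengths and gene filter were used, is not stated in the sources used here. Per the labels' protocols, single-end libraries were made with a kit that does not mark strand.

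Read depth was recovered from the spacing of low RPKM values with GENCODE M21 exon lengths, and 65.8% to 71.2% of values under 200 reads came within 0.01 of a whole read. That is too few for a count test. Replicates differed by more than sampling noise (mean chi-square of 12.7 to 19.2 per gene). For Il2ra a fitted length of 5091 bases, where GENCODE gives 5711, brought all 10 libraries within 0.0013 of whole reads.

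R 4.3.3 with limma 3.58.1 was run on log2(RPKM + 1) of the 12203 genes averaging at least 0.5 RPKM, fitting the mean of each group (4 residual degrees of freedom), with an intensity trend and two-sided Benjamini-Hochberg adjustment over all genes tested. For genotype differences over all times, genotype and time entered as additive terms (6 residual degrees of freedom). A 120 min library is assumed to vary like the other groups. Log2 changes on this scale understate those of low genes. The code was tested on simulated data. Depth and ratios were computed in Python 3.11.15 (pandas 2.3.3, numpy 2.4.6), and plots drawn with matplotlib 3.10.9.

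The members, the gene lists and the tests were chosen with earlier results of these data known. Every member is described. Some genes of the lists are counted but not reported here by name or plotted. From each list, up to 4 genes past the threshold with the largest change are named per stimulation comparison, and up to 4 past the threshold per genotype comparison. Alternatives were pseudocounts of 0.1 and 4, no filter, a mean of at least 2 RPKM, median-ratio and quantile scaling, no trend, a replicate block, the 0 and 30 min libraries alone for the 30 min change, and each library left out.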

Additional observations from a re-analysis of the deposited data

Results flagged for a closer look

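Among the members, 2 had their 0 and 30 min libraries in opposite order in the genotypes. The share of all genes with such an order was not computed. For Il2rb both Ikaros-Zn4-/- libraries at 30 min (174 and 159 RPKM) lay below both at 0 min (189 and 203 RPKM), while both WT libraries at 30 min (119 and 101 RPKM) lay above both at 0 min (81.0 and 82.4 RPKM). The difference between the responses was -0.65 (SE 0.19, unadjusted p = 0.0117), and with an adjusted p = 0.876 (limma) it did not pass. For Il6st both Ikaros-Zn4-/- libraries at 30 min (30.1 and 26.0 RPKM) lay below both at 0 min (34.0 and 30.3 RPKM), while both WT libraries at 30 min (36.9 and 30.8 RPKM) lay above both at 0 min (30.7 and 30.1 RPKM). That difference was -0.34 (SE 0.20, unadjusted p = 0.132), with an adjusted p = 0.892. For Il6st the order rests on small gaps, since the nearest libraries of both times had overlapping 95% counting intervals in each genotype. In WT cells these were 29.5 to 32.2 RPKM at 30 min and 29.7 to 31.7 RPKM at 0 min. In Ikaros-Zn4-/- cells they were 29.1 to 31.1 RPKM at 30 min and 28.8 to 31.9 RPKM at 0 min.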

How the results depend on the processing

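Of the values of single members, 333 of 351 under other settings and 388 of 414 with 1 library left out kept their direction and their side of the threshold, and of the counts of members past the threshold 63 of 68 and 66 of 78 stayed within 1.5 times. At 30 min the count was 1 with no intensity trend and 1 to 2 with 1 library left out. With 1 library left out it was 4 to 8 at 120 min against 0 min (4 without the WT 120 min library, when the contrast rests on Ikaros-Zn4-/- cells alone), 5 to 7 at 120 min against 30 min, 1 to 2 for the genotypes over all times and 0 to 1 at 0 min. The number of all genes past the threshold moved as well. It was lower at 30 min without any 1 of the 0 and 30 min libraries, and lower in both 120 min contrasts without either 120 min library. With no intensity trend 2226 of all 12203 genes passed at 30 min (2317 in the main fit). For single members, direction changed only where no call had been made. Il21r at 30 min was -0.038 under quantile scaling (-0.014 to 0.26 with 1 library left out). The genotype difference of Il7r over all times was -0.022 under median-ratio scaling and -0.068 under quantile scaling (-0.14 to 0.17 with 1 library left out), and that of Il2rg was -0.024 under quantile scaling. With 1 library left out, Il7r ranged from -0.45 to 0.0075 at 30 min and from -0.41 to 0.071 at 120 min against 30 min, and the difference of the Il4ra responses at 30 min from -0.61 to 0.020. The Il4ra call at 30 min was also lost with no filter (adjusted p = 0.0557) and with no trend (adjusted p = 0.0530), and its change at 120 min against 30 min passed with a mean of at least 2 RPKM (adjusted p = 0.0478), median-ratio scaling (adjusted p = 0.0185) and quantile scaling (adjusted p = 0.0415). Il2rg at 30 min passed under quantile scaling (-0.31, adjusted p = 0.0362) and Il6ra at 30 min with no filter (adjusted p = 0.0376). Apart from what the construction of a setting shows, the cause was not tested.

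Deviations from the group means correlated between same-numbered libraries by 0.04 to 0.23 over 6 pairs of groups, weakly but always positively. The main tests did not use the numbers to pair the libraries, and whether same-numbered libraries belong together is not known. With the replicate number as a block, 4 members passed at 30 min (Il2rg, adjusted p = 0.0492, and Il6ra, adjusted p = 0.0262, in addition), 2 for the genotypes over all times and 2 at 0 min (Il6ra in addition, adjusted p = 0.0482 and 0.0461) and 1 at 30 min (Il2rb, adjusted p = 0.0427). More of all 12203 genes passed with the block too, 3484 at 30 min against 0 min (2317 without it). For the genotypes 1567 passed over all times (1150 without it), 439 at 0 min (302) and 549 at 30 min (319). The labels of the Ikaros-Zn4-/- 120 min library disagree on its replicate number (1 in the title, 2 in the description, which was followed), so blocked 120 min values are uncertain. The block also gave calls to Il7r at 120 min (-0.64, adjusted p = 0.0195) and to Il4ra at 120 min against 30 min (0.88, adjusted p = 0.0494). Of all genes 7717 passed at 120 min against 0 min with the block (7291 without it), and 6389 at 120 min against 30 min (5885). Depth limits Il2ra alone among the members.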
